A study of Homo sapiens with 6 samples.

Results

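The 10 genes described here encode RNA-binding proteins that act on the 3′ UTRs of other mRNAs: ELAVL1, HNRNPD, KHSRP, CELF1, FXR1, FXR2, FMR1, CPEB2, CPEB4 and IGF2BP2. They were picked by name from a table of 18234 genes, and all 10 were found in it and passed the filter on low values that left 8506 genes for testing. The libraries were 3 miR-CLIP and 3 Input libraries from IMR90, 1 line of normal human lung fibroblasts. In both groups the cells carried a retroviral RASV12, an oncogenic form of RAS, and had been transfected with a miR-146a mimic modified with psoralen and biotin, so the groups differ in the purification of RNA and not in the cells. The miR-CLIP libraries hold RNA recovered with an AGO2 antibody and then through the biotin of the mimic. Per the labels' protocols the cells were selected with puromycin at 1.5 ug/ml for 3 days, seeded on day 10 after infection, transfected 24 hours later and harvested 24 hours after that. The step at which Input RNA was set aside is not stated in the labels. They also do not say whether the 3 libraries of each group are separate cultures, and p-values therefore reflect only how far these libraries scatter, which may be technical.

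AU-rich elements are stretches of repeated AUUUA in the 3′ UTRs of many cytokine and growth factor mRNAs, and they make those mRNAs short-lived. Proteins that bind them either protect the mRNA, as ELAVL1 (HuR) does, or bring in the decay machinery, as KHSRP (KSRP) and most forms of HNRNPD (AUF1) do. MicroRNAs act on the same 3′ UTRs through AGO2, so RNA-binding proteins and microRNAs may compete for a message or act on it together. miR-146a is an inflammation-induced microRNA that dampens interleukin-1 and NF-kB signalling, and ELAVL1 mRNA has been reported as a target of it in endothelial cells.

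The base pairing by which miR-146a finds a message runs through its seed, so the seed and the stretches of these 10 mRNAs that match it are shown here. The mature microRNA, from RefSeq on GRCh38.p14 (chr5:160485372-160485393, plus strand), is printed 5′ to 3′ with the seed, bases 2 to 8, in capitals.
hsa-miR-146a-5p: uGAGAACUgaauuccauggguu

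The longest annotated 3′ UTR of each gene in GENCODE release 29 was searched on the mRNA strand for GTTCTC, the reverse complement of bases 2 to 7 of the microRNA. A match preceded by A is a 7mer-m8 site (AGTTCTC), one followed by A is a 7mer-A1 site (GTTCTCA), and one with both is an 8mer (AGTTCTCA). These motifs overlap by construction. FXR1, CELF1, HNRNPD and ELAVL1 held at least 1 AGTTCTC, and the other 6 genes held no GTTCTC at all. The sites of 7 or 8 matching bases are printed 5′ to 3′ on the mRNA strand, with the matching bases in capitals and coordinates on GRCh38.
HNRNPD, chr4:82354005-82354028, minus strand: gaagtttaattctgAGTTCTCAtt
CELF1, chr11:47468301-47468324, minus strand: ttgtttttcttctgAGTTCTCAac
FXR1, chr3:180981330-180981353, plus strand: ccctaatttttctcAGTTCTCAtt
FXR1, chr3:180978089-180978112, plus strand: ggttaaattgtctcAGTTCTCtta
FXR1, chr3:180979246-180979269, plus strand: ctcaaaccaactagtGTTCTCAtg
ELAVL1, chr19:7962393-7962416, minus strand: agattaaccctcaaAGTTCTCttc

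The 3′ UTR was 6461 nucleotides in FXR1, 6198 in CELF1, 4904 in ELAVL1 and 1687 in HNRNPD, against a median of 1306 over 6294 tested protein-coding genes. GTTCTC was found in 33.1% of those 6294 3′ UTRs, AGTTCTC in 12.2% and AGTTCTCA in 4.6%. Among 3′ UTRs of like length, from 0.8 times the length of the gene's own to the inverse of that ratio, AGTTCTC was found in 38.2% for FXR1, 35.8% for CELF1, 30.4% for ELAVL1 and 9.6% for HNRNPD. In HNRNPD the GTTCTC of the 8mer began at base 172 after the stop codon, nearer to it than any other match in the set. Among 3′ UTRs of like length, 3.3% held an 8mer for HNRNPD, 12.2% for CELF1 and 13.6% for FXR1. CPEB4 had a 3′ UTR of 5839 nucleotides and CPEB2 one of 3773, with no match. A match describes the letters of the annotation and is not a measured binding site.

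**Figure D1:**
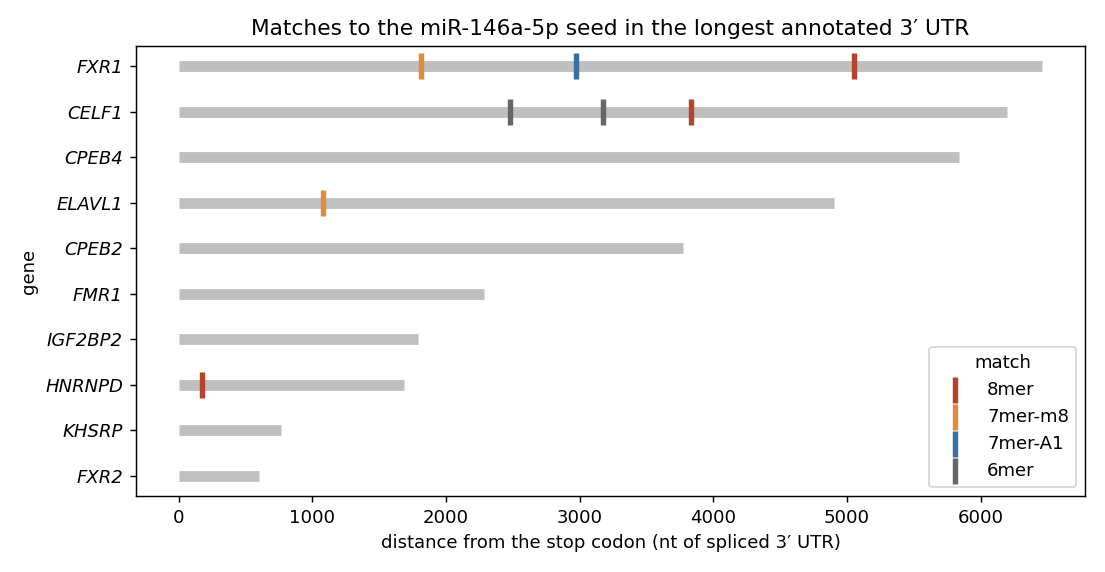
Grey bars show the longest annotated 3′ UTR of each gene, with distance from the stop codon in nucleotides on the horizontal axis, and ticks mark matches to the miR-146a-5p seed by kind. Matches lie in FXR1, CELF1, ELAVL1 and HNRNPD, and the GTTCTC of the one in HNRNPD begins at base 172 after the stop codon.

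The same 3′ UTRs were searched for AUUUA itself, written ATTTA. It was present in 9 of the 10 genes and in 73.1% of the 6294 3′ UTRs. CPEB4 had 22 copies, FXR1 18, CPEB2 14, ELAVL1 13 and CELF1 10. KHSRP had 0 copies in a 3′ UTR of 764 nucleotides, where 67.0% of 3′ UTRs of like length had at least 1. Per kb of 3′ UTR, CPEB4 had 3.77 copies and CPEB2 3.71, against medians of 2.18 and 2.17 over 3′ UTRs of like length. FXR2 at 3.33, FXR1 at 2.79 and ELAVL1 at 2.65 were also above their medians of 1.40, 2.33 and 2.24. The other 5 were below theirs: CELF1 had 1.61, FMR1 1.31, HNRNPD 1.19, IGF2BP2 1.12 and KHSRP 0, against 2.22, 2.05, 1.93, 1.91 and 1.38. The cytoplasmic polyadenylation element to which CPEB proteins bind, written TTTTAT, was present in 9 of the 10 genes and in 61.2% of the 6294 3′ UTRs. It occurred 18 times in CPEB2, 15 in CPEB4, 9 in ELAVL1, 8 in FXR1 and 9 in the shorter 3′ UTR of HNRNPD, 1687 nucleotides. For CPEB2 and CPEB4, 91.2% and 97.2% of 3′ UTRs of like length held it.

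Values are normalised read counts, and behave as whole reads per gene scaled by 1 factor for each library. The rows held 6847837 to 9378463 reads in miR-CLIP libraries and 9295325 to 12771968 in Input libraries, and each of the 10 mRNAs rested on between 290 and 6069 reads in a library. The summed level of the fibroblast markers in the table, 10 of the 11 listed, was 163400 to 211600 in miR-CLIP and 142500 to 217600 in Input libraries. That of 6 epithelial markers was 536 to 2254 in miR-CLIP and 1016 to 1362 in Input, of 4 endothelial markers 124 to 237 and 157 to 246, and of 5 blood cell markers 10.3 to 41.3 and 8.67 to 25.1, with no marker in the table at 0 in every library. In bulk RNA, fewer cells of a type and less RNA per cell cannot be told apart. Library B of the miR-CLIP group stood apart from its group: over log2 values of the tested genes its Pearson r ran between 0.973 and 0.982 against the Input libraries, but was 0.929 against miR-CLIP A and 0.911 against miR-CLIP C. Results are therefore given with and without it. The choice of that library came from the same values as the tests, and it is the miR-CLIP library most like Input. Adjusted p-values without it therefore describe the libraries kept and are no separate support for a difference.

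In limma on log2(value + 1), a moderated linear model fitted to all 8506 genes with Benjamini-Hochberg adjustment, 0 of the 10 genes were higher and 0 lower in miR-CLIP at an adjusted p of 0.05. The share of all tested genes called was 0% in each direction with limma and in either direction with edgeR and limma-voom, and 0.0235% with DESeq2, which called 0 of the 10. At an unadjusted p of 0.05 in limma, 2.4% of all tested genes were higher and 4.04% lower, and 0 of the 10 in each direction. In either direction at that p, 0 of the 10 passed with limma, edgeR, DESeq2 or limma-voom, where 6.44%, 6.58%, 7.94% and 7.18% of all tested genes did. The groups overlapped for all 10 genes, while they did not overlap for 5.64% of tested genes higher and 7.34% lower in miR-CLIP. The median log2 fold change, miR-CLIP minus Input, was -0.02 over the 10 genes and -0.13 over all genes tested. In the authors' deposited table the p-values of the 10 genes ran from 0.128 for CELF1 to 0.984 for FXR1, with an adjusted p of 1 for each.

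Without miR-CLIP library B, 3 of the 10 genes were higher, namely CELF1, CPEB2 and FXR2, and 0 were lower by the same limma test. Over all tested genes, 12.6% were higher and 16.1% lower in that fit, together 28.7% against 30% of the 10, so the count was close to that of the table as a whole. Each of the 3 is a gene whose values in miR-CLIP A and C both lay above the Input mean. That was so for 30.6% of all tested genes, while 3 of the 10 (HNRNPD, IGF2BP2 and KHSRP) lay below it in both libraries, as did 42.4% of all genes.

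**Figure D2:**
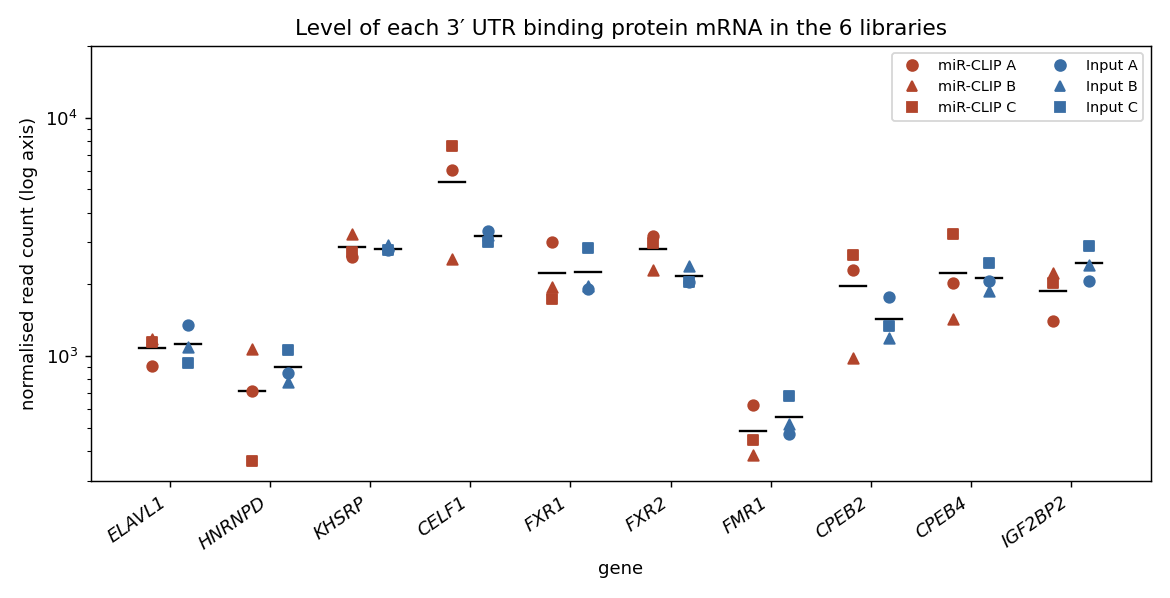
Normalised read counts (log axis) of the 10 genes in each library, with miR-CLIP in red left of Input in blue, marker shape for library letter and a bar at the mean of 3. CELF1 and CPEB2 are high in miR-CLIP A and C and below the Input range in miR-CLIP B, while KHSRP and ELAVL1 lie close to their Input values throughout.

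Of the AU-rich element binders, ELAVL1 (chromosome 19, 7958579 to 8005659), which shields AU-rich mRNAs from decay, had 913, 1184 and 1147 normalised read counts across miR-CLIP A to C, against 1346, 1096 and 939 across Input A to C. The 3 miR-CLIP values lay within or just under the Input range. Its mean was 1081 ± 147 in miR-CLIP and 1127 ± 205 in Input (SD, n = 3 each), a log2 fold change of -0.05 ± 0.26 (SE; limma adjusted p 0.945).

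HNRNPD (chromosome 4, 82352498 to 82374503), whose AUF1 proteins mostly promote decay, had 715, 1072 and 363 across miR-CLIP A to C, against 852, 778 and 1064 across Input A to C. Libraries A and C were under every Input value and library B above every one. Its log2 fold change was -0.45 ± 0.40, with a limma adjusted p of 0.661. Without library B it was -0.81 ± 0.30, which missed the threshold in limma (adjusted p 0.0765), while edgeR on the reads without that library gave -0.83 and an adjusted p of 0.0494. Without miR-CLIP C it was -0.024 (limma adjusted p 0.990). The 2 miR-CLIP libraries left in that fit lay on opposite sides of the Input mean, A at -0.32 and B at 0.27 on the log2 scale. This is the gene with an 8mer close to the stop codon. HNRNPDL, a listed relative of HNRNPD, had 843, 1367 and 434 across miR-CLIP A to C, against 1156, 1166 and 1475 across Input A to C. HNRNPAB, another listed relative, had 4589, 3065 and 2024 across miR-CLIP A to C, against 2329, 2771 and 2822.5 across Input A to C. The log2 fold change was -0.66 ± 0.41 for HNRNPDL and 0.21 ± 0.33 for HNRNPAB.

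KHSRP (chromosome 19, 6413348 to 6424794), a KH-domain protein that recruits the exosome to AU-rich mRNAs and also takes part in the maturation of some microRNAs, was the steadiest of the set. It had 2605, 3240 and 2726 across miR-CLIP A to C, against 2783, 2920 and 2776 across Input A to C. The log2 fold change was 0.01 ± 0.24 (limma adjusted p 0.990). Its coefficient of variation was 11.8% in miR-CLIP and 2.9% in Input, where counting of reads alone gives 1.97% and 1.65%.

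The ratio of the protector ELAVL1 to the decay factor HNRNPD, per kb of exon, was 1.28, 1.11 and 3.17 across miR-CLIP A to C, against 1.59, 1.41 and 0.885 across Input A to C. Per kb of the longest transcript the Input mean of ELAVL1, 187, was below that of HNRNPD, 195, so whether the ratio exceeds 1 depends on the length used. The high ratio stood in miR-CLIP C alone, the library with the low HNRNPD value. The ratio of ELAVL1 to KHSRP was 0.230, 0.240 and 0.276 in miR-CLIP and 0.317, 0.246 and 0.222 in Input, in the same order of libraries. Both ratios overlapped between the groups.

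CELF1 (chromosome 11, 47465944 to 47565569), which binds GU-rich elements and brings in deadenylation and decay, had the largest log2 fold change of the 10. Its values were 6031, 2566 and 7588 across miR-CLIP A to C, against 3334, 3216 and 3011 across Input A to C. Libraries A and C were near or above a doubling of the Input mean of 3187 ± 163, and library B was below all Input values. The log2 fold change was 0.62 ± 0.40 with a limma adjusted p of 0.611. Without library B it was 1.09 ± 0.17, with an adjusted p of 0.00415 in limma and 0.00376 in edgeR. Without miR-CLIP C it was 0.305 (limma adjusted p 0.902). With all 6 libraries kept and estimated weights, CELF1 had a log2 fold change of 0.89 and a limma adjusted p of 0.0372. That fit called 532 genes higher and 711 lower of 8506. Nor is it separate from the fit without library B, as miR-CLIP B had the lowest weight, 0.159, and Input B the highest, 4.21. The 3′ UTR of CELF1 holds 1 8mer and 2 matches of 6 bases. Among 3′ UTRs of like length, 12.2% held an 8mer and 78.2% at least 1 GTTCTC.

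**Figure D3:**
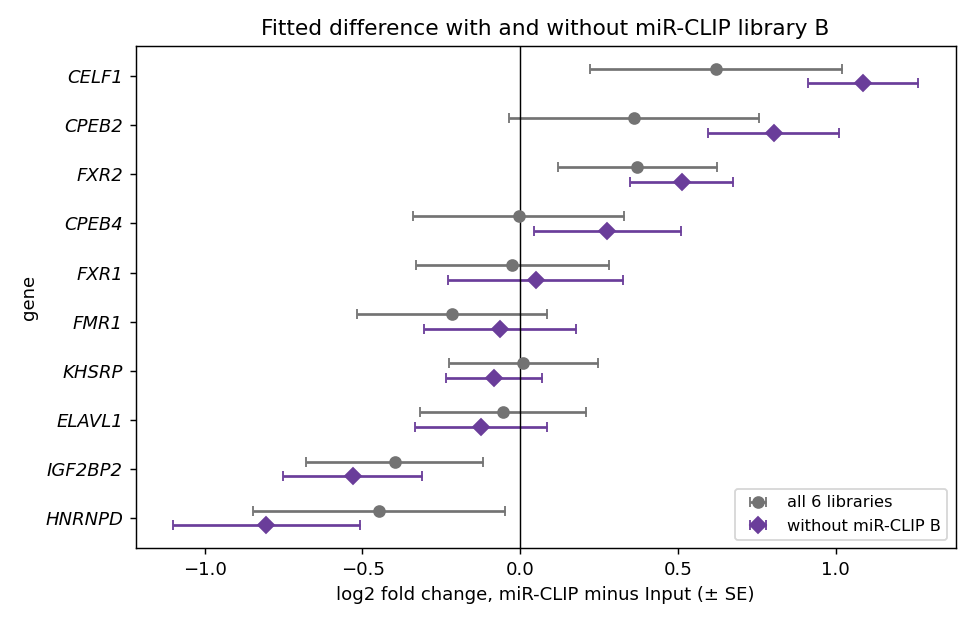
Fitted log2 fold change, miR-CLIP minus Input, with SE bars, for each gene with all 6 libraries (grey circles) and without miR-CLIP library B (purple diamonds). Leaving out library B moves CELF1 to 1.09 and CPEB2 to 0.80, and HNRNPD to -0.81.

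The fragile X family, FMR1, FXR1 and FXR2, binds polyribosomal mRNA through KH and RGG domains. FMR1 encodes FMRP, a repressor of translation whose loss causes fragile X syndrome, and FXR1 protein has been found with AGO2 on AU-rich mRNAs in human cells. FXR2 (chromosome 17, 7591230 to 7614871) had 3180, 2296 and 2972 across miR-CLIP A to C, against 2049, 2386 and 2050 across Input A to C. Libraries A and C were above every Input value and library B within the Input range. The log2 fold change was 0.37 ± 0.25 (limma adjusted p 0.611). Without library B it was 0.51 ± 0.16, with an adjusted p of 0.0482 in limma and 0.107 in edgeR.

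FXR1 (chromosome 3, 180868141 to 180982753), the only one of the 10 with 3 matches of 7 or 8 bases to the seed, had 3004, 1955 and 1733 across miR-CLIP A to C, against 1911, 1971 and 2848 across Input A to C. Here miR-CLIP A was high and C low, and the log2 fold change was -0.03 ± 0.31 (limma adjusted p 0.978). FMR1 (chromosome X, 147911951 to 147951125) had 624, 383 and 444 across miR-CLIP A to C, against 470, 521 and 681 across Input A to C, a log2 fold change of -0.22 ± 0.30 (limma adjusted p 0.785). In FMR1 it lay between -0.415 without miR-CLIP A and -0.063 without Input C. Neither passed without library B, with a log2 fold change of 0.05 ± 0.28 for FXR1 and -0.06 ± 0.24 for FMR1 and limma adjusted p of 0.913 and 0.868.

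Per kb of exon, FXR2 made up most of the family's summed level in every library: 69.7%, 72.1% and 78.0% across miR-CLIP A to C, against 69.1%, 71.3% and 60.2% across Input A to C. FMR1 made up 5.7% to 6.6% in miR-CLIP and 7.6% to 9.7% in Input, ranges that did not meet. The log2 ratio of FMR1 to FXR1 nevertheless overlapped between the groups, with a difference of -0.19 and an SD of 0.20 in miR-CLIP and 0.07 in Input. The shares of a library add up to a whole and are not separate measurements, and this one was singled out after its values were seen.

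The CPEB proteins bind cytoplasmic polyadenylation elements and set poly(A) tail length and translation. CPEB2 (chromosome 4, 15002674 to 15070153) had 2289, 980 and 2659 across miR-CLIP A to C, against 1772, 1195 and 1331 across Input A to C. As with CELF1, libraries A and C were above and library B below all Input values. Its log2 fold change was 0.36 ± 0.40 (limma adjusted p 0.721). Without library B it was 0.80 ± 0.21, with an adjusted p of 0.0239 in limma and 0.0345 in edgeR. It was 0.192 without miR-CLIP A, 0.084 without miR-CLIP C and 0.24 without Input B, with limma adjusted p of 0.917, 0.970 and 0.932.

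CPEB4 (chromosome 5, 173888280 to 173961976) had 2034, 1430 and 3241 across miR-CLIP A to C, against 2073, 1869 and 2460 across Input A to C. Only miR-CLIP C was above the Input range and B was below it, and the log2 fold change was -0.01 ± 0.33 (limma adjusted p 0.997). Per kb, the ratio of CPEB2 to CPEB4 was 1.61, 0.981 and 1.18 across miR-CLIP A to C, against 1.224, 0.915 and 0.775 across Input A to C. The ratio was higher in miR-CLIP than in the Input library of the same letter in each case, but the groups overlapped and the letters are not known to pair the libraries.

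IGF2BP2 (chromosome 3, 185643739 to 185825056), an m6A-reading protein of the IMP family that stabilises and transports mRNAs, had 1410, 2224 and 2018 across miR-CLIP A to C, against 2072, 2408 and 2903 across Input A to C. It was the only one of the 10 genes below the Input mean in all 3 miR-CLIP libraries, a pattern seen in 15.8% of all tested genes. The log2 fold change was -0.40 ± 0.28 (limma adjusted p 0.615), and -0.53 ± 0.22 without library B (limma adjusted p 0.108). Without miR-CLIP A it was -0.202 (limma adjusted p 0.872). Its relatives IGF2BP1 and IGF2BP3 had log2 fold changes of 0.29 ± 0.26 and -0.85 ± 0.29. IGF2BP3 had 1144, 1414 and 845 across miR-CLIP A to C, against 2282, 1627 and 2181 across Input A to C, so every miR-CLIP value was lower than every Input value (limma adjusted p 0.611).

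Transcript length moved with these values. Over 6344 tested protein-coding genes, the Spearman correlation of transcript length with the log2 difference from the Input mean was 0.441, -0.488 and 0.359 across miR-CLIP A to C. Over the 10 genes it was 0.345, -0.705 and 0.273, as a description of points that share each library. CELF1, whose longest transcript has 7666 nucleotides, lay at 0.92, -0.31 and 1.25 across miR-CLIP A to C, where coding genes of like length, by the same ratio, had medians of 0.58, -0.25 and 0.37. CPEB2, with 6878 nucleotides, lay at 0.70, -0.53 and 0.91, against 0.49, -0.21 and 0.30 for genes of its length. FXR2, with 2957 nucleotides, went the other way from genes of its length in A and C: it lay at 0.56, 0.09 and 0.46, and they at -0.21, 0.11 and -0.29. HNRNPD, with 4597 nucleotides, lay at -0.32, 0.27 and -1.29, and genes of its length at 0.17, -0.06 and 0.05.

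After a lowess correction for transcript length without library B, FXR2 had a log2 fold change of 0.79 (limma adjusted p 0.0113), CELF1 0.67 (adjusted p 0.0481) and HNRNPD -0.88 (adjusted p 0.0471). CPEB2 had 0.44 in that fit and did not pass (adjusted p 0.187). Over all genes that fit called 1015 higher and 867 lower of 8475, so a call in it was common. The fit was chosen after the data were seen. With all 6 libraries the length-corrected values were 0.53 for FXR2, 0.43 for CELF1, 0.19 for CPEB2 and -0.48 for HNRNPD, with limma adjusted p between 0.535 and 0.798.

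**Figure D4:**
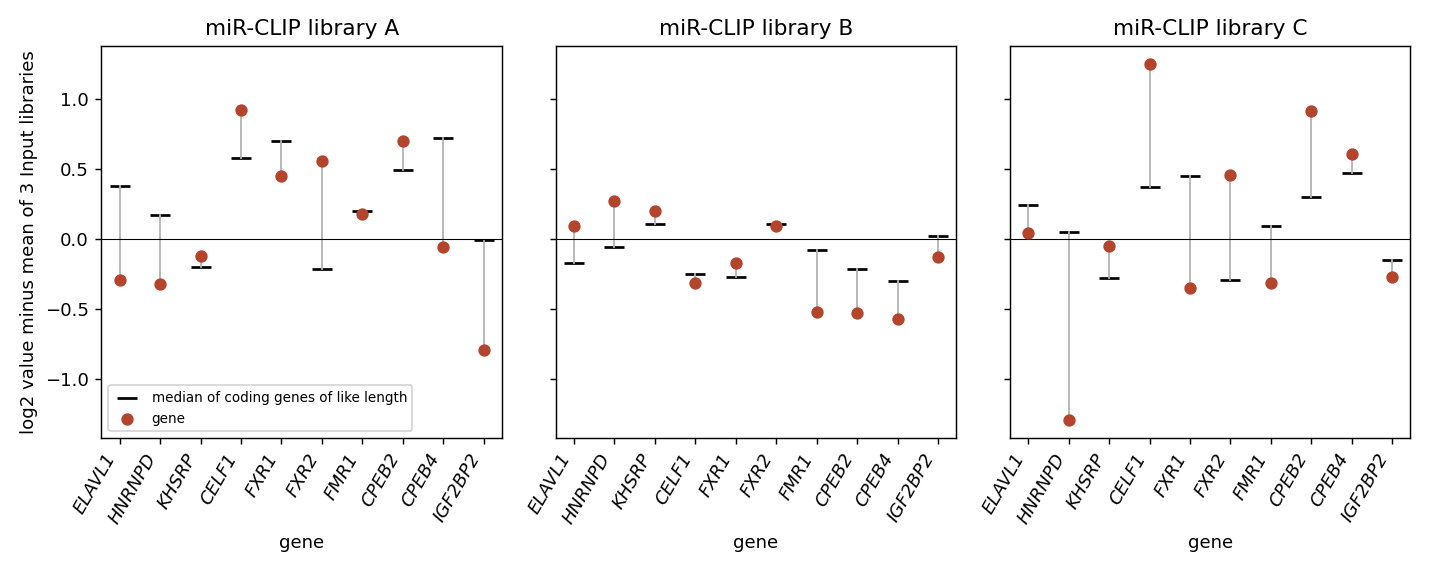
Red points show, for each miR-CLIP library, the log2 value of each gene minus the mean of the 3 Input libraries, and black dashes the median of tested coding genes of like transcript length. CELF1 and CPEB2 sit above their dashes in A and C and below zero in B, and HNRNPD sits at -1.29 in C where its dash is at 0.05.

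Spread between miR-CLIP libraries was uneven over the 10 genes. The SD of log2 values was 0.82 for CELF1, 0.79 for HNRNPD and 0.78 for CPEB2 in miR-CLIP, against 0.07, 0.23 and 0.29 in Input. At the other end it was 0.17 for KHSRP and 0.20 for ELAVL1 in miR-CLIP, against 0.04 and 0.26 in Input. Tested genes of like mean level (within 0.5 on the log2 scale) had median SDs of 0.51 to 0.57 in miR-CLIP and 0.15 to 0.18 in Input. ELAVL1 was the only one of the 10 with a lower SD in miR-CLIP than in Input. The error from counting reads was at most 4.85% of the mean in miR-CLIP and 3.73% in Input, both for FMR1. For KHSRP in Input that error was 1.65%, beside a coefficient of variation of 2.9%.

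The order of levels was read per kb of exon, since longer mRNAs give more reads. In Input, KHSRP was highest at 619 ± 17.8 normalised read counts per kb, followed by IGF2BP2 at 520 ± 88.3, FXR2 at 499 ± 44.9 and CELF1 at 305 ± 15.6. CPEB4 at 208 ± 29.2, CPEB2 at 200 ± 42.0, FXR1 at 186 ± 43.5 and ELAVL1 at 162 ± 29.5 followed (SD, n = 3 each). HNRNPD had 129 ± 21.3 and FMR1 62.5 ± 12.4. The neighbours IGF2BP2 and FXR2 overlapped, as did KHSRP with IGF2BP2 and each pair of neighbours from CPEB4 down to HNRNPD, whereas CELF1 lay apart from the genes on either side of it and FMR1 below all others. Part of this order changed when levels were taken per kb of the longest transcript in place of all exons. FXR2 at 731 then stood above IGF2BP2 at 667, FXR1 at 258 above CPEB4 at 225 and CPEB2 at 208, and HNRNPD at 195 above ELAVL1 at 187, while FMR1 had 115 and stayed lowest. Against 6344 tested coding genes and per kb of exon, KHSRP stood at percentile 92.3 of Input level per kb, ELAVL1 at 70.7 and FMR1 at 50.5.

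In miR-CLIP the order was less fixed. FXR2 averaged 650 ± 107 per kb, KHSRP 626 ± 73.9 and CELF1 516 ± 246, and these 3 overlapped. IGF2BP2 averaged 398 ± 89.3, CPEB2 275 ± 123, CPEB4 218 ± 89.8, FXR1 185 ± 56.3 and ELAVL1 155 ± 21.1. HNRNPD had 103 ± 50.8 and FMR1 54.2 ± 14.0, and their ranges overlapped in miR-CLIP but not in Input.

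**Figure D5:**
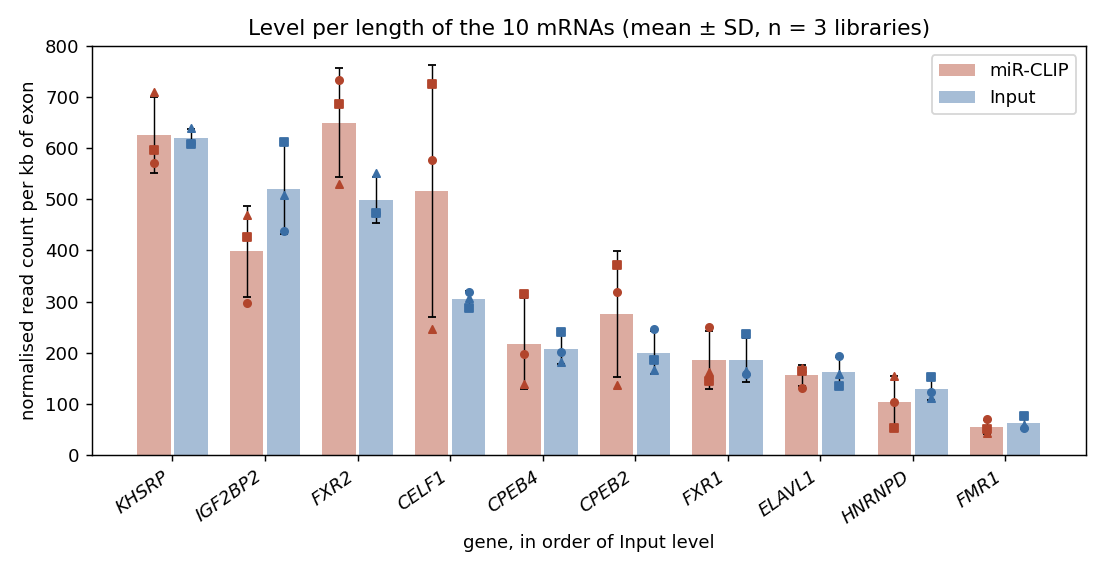
Bars give the mean normalised read count per kb of exon in miR-CLIP (red, left) and Input (blue, right) with SD over 3 libraries, and points the single libraries. KHSRP leads in Input at 619 and FMR1 is lowest at 62.5, and CELF1 has the widest spread in miR-CLIP.

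Among the 10 genes, CELF1 and CPEB2 had the most similar pattern over the 6 libraries, with a Pearson r of 0.936, and CELF1 and HNRNPD the most opposed, with -0.896. FXR1 followed FMR1 (0.859) and ran against ELAVL1 (-0.862). These correlations describe 6 libraries of 2 groups, with 1 library set apart, and carry no test. Over all tested genes, the one most like each was KIFC2 for ELAVL1 (0.981), AGER for HNRNPD (0.992), HLA-C for KHSRP (0.994), BAHD1 for CELF1 (0.998), HNRNPR for FXR1 (0.992) and ERCC3 for FXR2 (0.992). It was AHI1 for FMR1 (0.982), FBXL17 for CPEB2 (0.997), KIF25-AS1 for CPEB4 (0.996) and DFFA for IGF2BP2 (0.995). With 6 libraries such values are common: 299 genes had an r above 0.95 with CELF1 and 174 with HNRNPD, but 5 with ELAVL1.

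Of 16 listed relatives of the 10 genes, all were in the table and 11 were tested, and 0 were called in either direction by limma with all 6 libraries. Their median log2 fold change was 0.15. CELF3, CELF4, CELF6, ELAVL3 and ELAVL4 were at or near 0 in every Input library and were not tested. Besides IGF2BP3, CELF5 had -1.70 ± 0.87 at 1.67 ± 2.89 in miR-CLIP and 5.36 ± 2.71 in Input, a few reads, and HNRNPDL had -0.66 ± 0.41. On the other side CPEB3 had 1.52 ± 0.98 with 74.3, 12.9 and 286 across miR-CLIP A to C, against 26.9, 28.3 and 14.7 across Input A to C, and CPEB1 had 0.39 ± 0.42. Without library B, CPEB3 was higher, and IGF2BP3, HNRNPDL and FUBP1, a relative of KHSRP, were lower, 1 and 3 of the 11 tested beside 12.6% and 16.1% of all tested genes. Their log2 fold changes in that fit were 2.65, -1.03, -1.06 and -0.79, with limma adjusted p of 0.0175, 0.0115, 0.0276 and 0.0249.

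Of 56 other proteins that bind 3′ UTRs or AU-rich elements, 37 were in the table and 35 were tested, with a median log2 fold change of 0.08. In limma with all 6 libraries 0 were called. Of the 35, 7 had every miR-CLIP value above every Input value and 3 had every one below, where 5.64% and 7.34% of all tested genes did. The hnRNP proteins HNRNPUL2, HNRNPM and HNRNPA0, the last a binder of AU-rich cytokine mRNAs, had log2 fold changes of 1.02 ± 0.36, 0.95 ± 0.35 and 0.86 ± 0.34, with no overlap of groups and a limma adjusted p of 0.611 each. HNRNPA0 had 3702, 1599 and 3033 across miR-CLIP A to C, against 1532, 1514 and 1294 across Input A to C. HNRNPA2B1 and HNRNPC had -0.78 ± 0.38 and -0.53 ± 0.32. DAZL, a germ-cell RNA-binding protein, had 0, 4.96 and 1.250 across miR-CLIP A to C, against 12.2, 34.1 and 23.4 across Input A to C. Its log2 fold change of -3.24 ± 0.80 rests on a few reads in miR-CLIP. Without library B, 6 of the 35 were higher and 3 lower by limma, beside 12.6% and 16.1% of all tested genes. With the length correction in that fit 4 were higher and 4 lower, beside 1015 and 867 of 8475 genes.

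The mRNAs on which these proteins act were listed as well: 46 cytokine, growth factor and early response mRNAs with AU-rich elements, of which 41 were in the table and 40 tested. In limma with all 6 libraries 0 were called, and the median log2 fold change was -0.11, with 13 above 0 and 27 below. The median by library was -0.57, 0.23 and -0.23 across miR-CLIP A to C, where that of all tested genes was -0.10, 0.06 and -0.28. BTG2, an antiproliferative gene, had 2.06 ± 0.63 with 2278, 631 and 4779 across miR-CLIP A to C, against 556, 374 and 453 across Input A to C. The cell cycle inhibitor CDKN1A had 0.76 ± 0.40 and the early response gene IER2 0.67 ± 0.36. The growth factor EREG had -0.94 ± 0.40, the chemokine CCL20 -1.70 ± 0.72 and the apoptosis inhibitor BIRC3 -0.80 ± 0.37. Of the 40, 4 had every miR-CLIP value above every Input value, namely BTG2, DUSP1, FOSL1 and IL11. Another 3, EREG, BIRC3 and IL1A, had every one below. Over all tested genes these shares were 5.64% and 7.34%. Interleukin-11, IL11, had 1935 ± 53.4 in miR-CLIP and 1427 ± 343 in Input, and IL1A 1004 ± 110 and 1371 ± 88.7. These 2 were picked after their values were seen. Without library B, 4 of the 40 were higher and 11 lower by limma, where 12.6% and 16.1% of all tested genes were. With the length correction in that fit, 9 of the list were higher and 3 lower. The balance over all genes turned over as well, to 1015 higher and 867 lower of 8475, from 1069 and 1373 of 8506.

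Genes that lie over the 10 on the other strand limit a few of these values. Whether counting used strand is not stated in the labels, so reads of genes on the opposite strand cannot be told apart where exons overlap. In GENCODE release 29, by the whole span of each gene, introns included, FXR2 overlaps MPDU1 over 1560 nucleotides and SHBG over 926, FXR1 overlaps CCDC39 over 2793, and the CELF1 locus meets PTPMT1 and NDUFS3 over 140 and 234. The antisense gene AC098829.1 covers 65212 nucleotides of CPEB2, most of its span, IGF2BP2-AS1 covers 17260 of IGF2BP2, AC010336.6 covers 890 of ELAVL1 and AC124016.1 covers 203 of HNRNPD.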

How the data were processed

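The authors deposited 1 table with a signal value for each gene in each library. Dividing a column by the worth of 1 read gave whole numbers for 100% of values within 1e-06, which is the form that read counts take after division by a library factor. The deposited table also holds the authors' fold (miR-CLIP over Input, linear), their p-value and its adjusted form, per the file headers. Build GRCh38 and the tools STAR 2.5.1b, Trimmomatic 0.35 and DESeq2 1.22.2 appear, with no role or order, in the submitters' processing notes. Of 18234 gene identifiers, 18143 were found in GENCODE release 29, from which lengths and 3′ UTRs were taken. List genes outside the table were not analysed here.

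limma-trend 3.58.1 (R 4.3.3) was fitted to log2(value + 1), two-sided, with group as the only term, for 8506 genes that reached 1 in 3 or more libraries. The pseudocount of 1 shrinks fold changes of low genes. The model, edgeR, DESeq2, limma-voom, upper-quartile scaling and library weights were run on simulated data in which no library stood apart. The other alternatives, among them the length correction, the column-letter block and the fits with a library left out, were not. edgeR 4.0.16, DESeq2 1.42.0 and limma-voom ran on the recovered reads. Members and lists were chosen with earlier results of these data known. Of each list, the 3 genes with the smallest p in each direction were to be named, and for each of the 10 genes the gene with the highest Pearson r. The columns carry letters that the labels do not, so they were assigned to groups only.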

Additional observations from a re-analysis of the deposited data

How the results depend on the processing

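With all 6 libraries, 0 genes were called by limma under either other pseudocount, either other filter, upper-quartile scaling, length correction or the column-letter block, and 0 by edgeR or limma-voom. DESeq2 called 2 genes higher. With estimated library weights, 532 genes were higher and 711 lower, with 1 of the 10 described genes higher. Leaving out each library in turn gave 0 to 1069 genes higher and 0 to 1373 lower, with 0 to 3 of the 10 higher, and the calls came only without miR-CLIP B. With that library left out, edgeR called 999 genes higher and 1345 lower, and limma with length correction 1015 and 867, each with 2 of the 10 higher and 1 lower. Both were chosen after seeing the data. Of 190 values for the 10 genes, 160 kept direction and call, 10 gained a call and 20 changed sign, all in genes near 0.

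KHSRP turned to -0.012 with edgeR, -0.017 with limma-voom, -0.07 with weights and -0.17 with edgeR without miR-CLIP B. CPEB4 turned to 0.04 with edgeR, 0.056 with DESeq2, 0.20 with weights and 0.23 with edgeR without miR-CLIP B, and FXR1 to 0.17 with weights. Leaving out 1 library moved ELAVL1 between -0.177 and 0.082, KHSRP between -0.084 and 0.073, FXR1 between -0.261 and 0.159 and CPEB4 between -0.314 and 0.276. It moved HNRNPD between -0.805 and -0.024, CELF1 between 0.305 and 1.087, CPEB2 between 0.084 and 0.804 and IGF2BP2 between -0.531 and -0.202. The cause was not tested. Deviations of same-letter libraries from their group means correlated at 0.14, 0.11 and 0.09 for A, B and C, and each library correlated best with its own letter, as a hint from the data. With the replicate block by letter, 0 genes were called. The log2 fold changes were as without it, which was fixed in advance because each letter occurs once in each group. Of 50 recomputed Input levels, 7 moved by more than their SD, all of them taken per kb of the longest transcript. Levels recomputed with 1 Input library left out are part of the 50 but could not move that far. Leaving 1 value out of a mean always shifts it by less than the SD of those values. Their result was therefore fixed in advance and says nothing on how stable the levels are.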
